A study of Mus musculus with 6 samples.

Results

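The oligoadenylate synthetases were described by 7 genes, Oas1a, Oas1b, Oas1g, Oas2, Oas3, Oasl1 and Oasl2, chosen by gene symbol from the 55416 genes of the deposited table with values of these libraries already known. Other genes of the pathway are given beside them. Bulk RNA-seq was made from cultured primary mouse chondrocytes, the cells of cartilage, taken from knee joints that the labels call neonatal, whereas the study's methods describe adult animals. Cells received a scrambled control siRNA (siNC, n = 3 libraries, labelled WT) or one directed at Pkm2 (siPkm2, n = 3 libraries), the splice form of pyruvate kinase that the study examined in osteoarthritis. The titles name all 3 knockdown libraries siPKM2, while their genotype labels read PKM2, PKM3 and PKM4 knockdown for replicates 1, 2 and 3, and they were taken as siPkm2. The study selected the third of its 3 designed duplexes for its work, but no source used here says which was in the sequenced cultures, the mouse strain is not in the labels, and no untransfected culture was analysed here, so transfection was shared by both groups.

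Oligoadenylate synthetases are enzymes that bind double-stranded RNA and join ATP into short oligoadenylates. The oligoadenylates act as a second messenger of the antiviral response, and phosphodiesterases end the signal by degrading them. The genes are known as interferon-stimulated genes, so their transcripts are made at a higher rate when factors activated by the interferon receptor bind an interferon-stimulated response element near their start sites.

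The libraries held between 22317065 and 25691096 estimated counts. Pkm, the targeted gene, lay at 2335, 2746 and 1674 CPM (counts divided by library size and scaled by TMM factors) in siNC and at 336, 541 and 309 CPM in siPkm2, so the groups did not overlap. Replicate 2 stood apart in both groups. The summed TPM of 8 chondrocyte markers was 3955 in siNC replicate 2 and 5299 in siPkm2 replicate 2, and between 13998 and 17277 in the other 4 libraries. The summed TPM of 10 macrophage markers was 118 and 87.6 in replicate 2 of siNC and siPkm2, and between 11.4 and 26.4 elsewhere, with 5 of the 10 under 10 counts in every library. Cd68 (92.8 and 53.4 TPM) and Cd14 (18.9 and 29.0 TPM) made up most of the sums of replicate 2, and the other 8 markers summed to 6.36 and 5.27 TPM there against 3.09 to 8.22 TPM elsewhere. Ptprc, the leukocyte surface marker CD45, had at most 2 counts in any library. The summed TPM of 4 synovial fibroblast markers was 116, 350 and 138 in siNC and 263, 451 and 341 in siPkm2, higher in siPkm2 in each pair. Of these markers, Thy1 went the other way in each pair. It lay at 27.88, 72.43 and 56.22 TPM in siNC and at 7.66, 62.95 and 35.83 TPM in siPkm2. The 5 endothelial markers summed to at most 1.05 TPM, and 3 of 4 lymphocyte markers had 0 counts in every library. In bulk RNA, more cells of a type and more RNA per cell cannot be told apart, and the part of these markers in the results below was not tested.

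All 7 genes lie on mouse chromosome 5 (GRCm38 coordinates, GENCODE M21). The 10 Oas genes, of which 5 are described here, form a cluster of 191.32 kb at chr5:120730333-120921652. Oasl1 and Oasl2 lie side by side at chr5:114896936-114937915, 5.79 Mb away. The annotation calls Oas1b a polymorphic pseudogene, and Oas1b is known as the flavivirus resistance gene of mice, which many laboratory strains carry with an early stop codon. The other 6 are annotated as protein-coding.

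The stretches just before the start sites were read because all 7 genes were higher in siPkm2 in each pair of libraries. The interferon-stimulated response element core, sought on both strands as GAAA and GAAA with any 2 bases between them, was found in the windows of 3 of the 5 members with a RefSeq promoter entry, Oas1a, Oas1g and Oas3. It was found in 3.44% of all 32851 windows of the same length (300 bases, 250 before and 50 after the start). The stretches below end at the base before the RefSeq start site (GRCm38.p6, minus strand), with the matches in capitals. The fourth is the 120 bases between the divergent starts of Oas1c and Oas1b, written on the Oas1c strand.

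Oas1a, chr5:120907526-120907675: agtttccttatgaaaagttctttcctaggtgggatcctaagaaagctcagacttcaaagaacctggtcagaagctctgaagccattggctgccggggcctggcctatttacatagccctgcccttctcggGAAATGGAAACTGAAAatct
Oas1g, chr5:120887614-120887763: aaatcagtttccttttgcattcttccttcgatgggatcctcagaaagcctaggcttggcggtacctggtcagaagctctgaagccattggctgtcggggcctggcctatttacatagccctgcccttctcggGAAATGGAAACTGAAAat
Oas3, chr5:120777660-120777809: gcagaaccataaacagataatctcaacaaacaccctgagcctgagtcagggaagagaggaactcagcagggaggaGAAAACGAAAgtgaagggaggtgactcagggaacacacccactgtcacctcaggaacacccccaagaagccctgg
Oas1c to Oas1b, chr5:120812515-120812634: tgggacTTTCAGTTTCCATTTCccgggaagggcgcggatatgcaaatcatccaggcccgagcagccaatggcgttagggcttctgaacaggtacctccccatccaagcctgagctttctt

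Oas1a and Oas1g held the same 16 bases, in which 2 overlapping cores are joined, 20 to 5 and 18 to 3 bases before their starts. The same 16 bases read on the opposite strand of the Oas1c stretch, which is the strand of Oas1b, and there they lay 22 to 7 bases before the annotated start of Oas1b and 114 to 99 bases before that of Oas1c. The run was present in 7 of the 32851 windows, those of 5 genes, Oas1a, Oas1c, Oas1g and the interferon-inducible apolipoproteins Apol9a and Apol9b. The single core of Oas3 began 75 bases before its start. The gamma-activated site, sought as TTCNNNGAA on both strands, was in the window of Oas1a, 98 bases before the start, and in 8.30% of all windows. In the windows of Oasl1 and Oasl2 neither set of letters was found, which says only that they are not in these 300 bases.

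Oas1a and Oas1g encode the active small synthetases of the mouse, and their coding sequences were identical at 1065 of 1101 aligned bases (96.7%). Of the 50-base words of the transcripts, 57.6% of those of Oas1a and 54.7% of those of Oas1g occurred in another gene, mainly the other of this pair. A stretch of their coding sequences (bases 366 to 485, GENCODE M21) shows how few bases can place a read, with the 4 that differ in capitals.

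Oas1a: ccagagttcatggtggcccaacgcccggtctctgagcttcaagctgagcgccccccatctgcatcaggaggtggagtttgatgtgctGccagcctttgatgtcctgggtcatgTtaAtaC
Oas1g: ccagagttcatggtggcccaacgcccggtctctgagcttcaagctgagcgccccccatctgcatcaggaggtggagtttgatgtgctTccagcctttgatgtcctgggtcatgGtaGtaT

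Their deposited counts carried fractions, and the sum of both was whole (within 0.01) in 5 of 6 libraries, so the split between them is an estimate. Oas1a took 25.9% to 33.1% of the sum in siNC replicate 2 and the 3 siPkm2 libraries. The summed level was 0.521, 97.5 and 0.842 CPM in siNC replicates 1, 2 and 3, and 83.8, 247 and 48.7 CPM in siPkm2. Control replicates 1 and 3 were near 0, while control replicate 2 lay above siPkm2 replicates 1 and 3, so the groups overlapped. The summed level averaged 32.9 ± 55.9 CPM among the 3 control libraries and 126 ± 106 CPM among the 3 siPkm2 libraries (mean ± SD).

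Taken singly, Oas1a lay at 0, 30.6 and 0.168 CPM in siNC and at 27.8, 64.0 and 14.2 CPM in siPkm2. Replicate 1 of siNC had 0 counts against 595 in siPkm2, which is at least 231-fold higher in siPkm2 when 3 counts are set for the library at 0. Oas1g lay at 0.521, 66.8 and 0.674 CPM in siNC and at 56.1, 183 and 34.5 CPM in siPkm2. Both genes were higher in siPkm2 in each of the 3 pairs of same-numbered libraries, by 2.09-fold for Oas1a and 2.73-fold for Oas1g in pair 2. In the other pairs the ratio was 108 and 51.3 for Oas1g, and 84.3 (95% exact counting interval 31.3 to 299, on 3.84 estimated control counts) for Oas1a in pair 3.

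Oas1b, whose product is not known as an active synthetase, lay at 0.843, 21.1 and 2.22 CPM in siNC and at 11.6, 37.7 and 11.1 CPM in siPkm2. It had the highest counts of the 7 genes in siNC replicate 1 after Oas2, and the smallest excess of replicate 2 within siNC, 13.8-fold over the mean of replicates 1 and 3. The pair folds were 13.7, 1.79 and 4.997. Its coding sequence was 79.6% identical to that of Oas1a, and 3.19% of its 50-base words occurred elsewhere, so its counts were little shared. Its level averaged 8.05 ± 11.3 CPM among the 3 control libraries and 20.1 ± 15.2 CPM among the 3 siPkm2 libraries (mean ± SD).

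Oas2, a synthetase with a pair of catalytic-type domains, lay at 1.05, 114 and 2.79 CPM in siNC and at 10.2, 152 and 12.8 CPM in siPkm2. Oas3, the longest family member, lay at 0.120, 73.3 and 0.0876 CPM in siNC and at 7.89, 86.8 and 2.90 CPM in siPkm2. For both genes the 2 libraries of replicate 2 were far above the other 4, in either group. In pair 2 they differed least of the 7, 1.34-fold for Oas2 and 1.19-fold for Oas3. In pairs 1 and 3 the fold was 9.78 and 4.59 for Oas2. The Oas3 folds rested on 3 and 2 control counts, with a ratio of 65.7 (95% exact counting interval 22.1 to 321) in pair 1 and 33.1 (8.73 to 277) in pair 3.

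Oasl1 and Oasl2 carry ubiquitin-like domains. Oasl1 lacks synthetase activity and is known to restrain translation of Irf7 mRNA, whereas mouse Oasl2 keeps synthetase activity. Oasl1 lay at 0, 8.74 and 0.175 CPM in siNC and at 4.85, 51.5 and 3.79 CPM in siPkm2, and it was the member with the widest difference in pair 2, 5.90-fold. In pair 1 it was at least 40.4-fold higher in siPkm2 against a floor of 3 counts, and in pair 3 the ratio was 21.7 (95% exact counting interval 8.15 to 81.4, on 4 control counts). Oasl2 lay at 0.641, 170 and 3.33 CPM in siNC and at 58.7, 307 and 64.3 CPM in siPkm2, with pair folds of 91.7, 1.80 and 19.3. Neither transcript shared a 50-base word with another gene, and their deposited counts were whole in all 6 libraries. The transcript of Oas2 shared none either, though its deposited counts carried fractions in all 6 libraries (26.15 in siNC replicate 1). The source of those fractions was not tested.

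**Figure D1:**
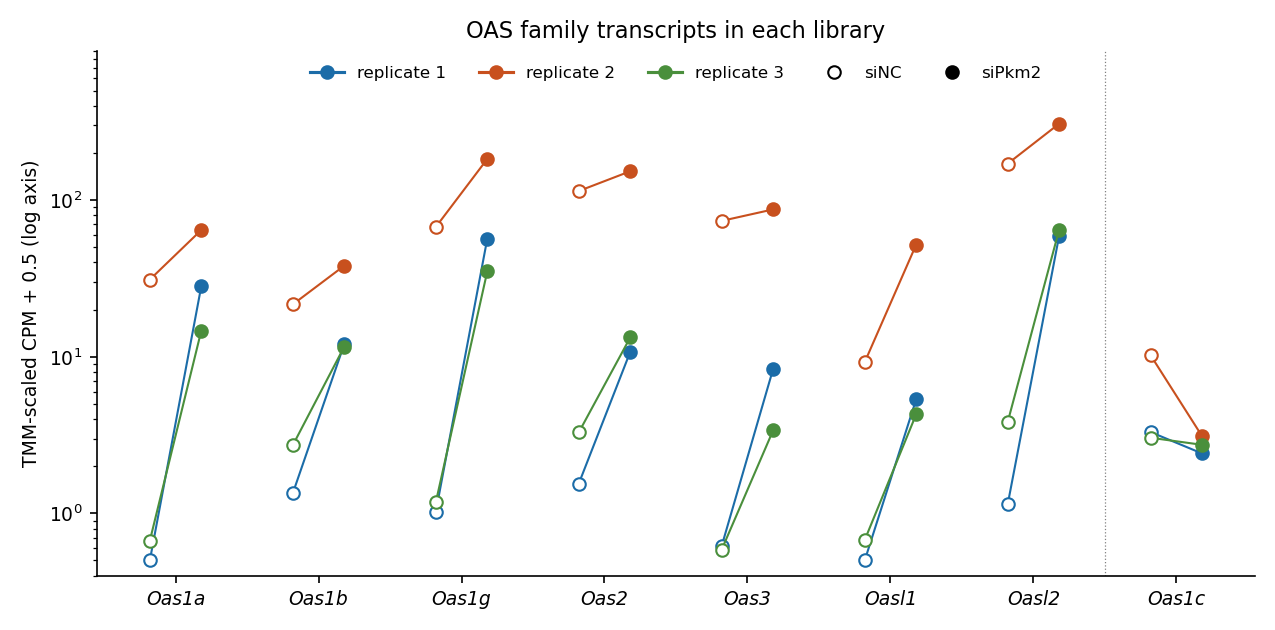
Level of each gene in each library, as TMM-scaled CPM + 0.5 on a log axis, with siNC as open and siPkm2 as filled circles and a line joining libraries of the same replicate number. For the 7 genes left of the dotted line every line rises, replicate 2 lies above replicates 1 and 3 in both groups, and siNC replicate 2 lies above siPkm2 replicates 1 and 3. Oas1c, right of the line, is another gene of the cluster.

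Every member had siNC replicate 2 above siPkm2 replicates 1 and 3, so no member separated the groups. The mean of siPkm2 replicates 1 and 3 reached 0.685 and 0.678 of the level of siNC replicate 2 for Oas1a and Oas1g, 0.537 for Oas1b, 0.494 for Oasl1 and 0.361 for Oasl2. For Oas2 and Oas3 it reached 0.101 and 0.0736. Oas2 and Oas3 were thus high in replicate 2 of either group and comparatively low in the other siPkm2 libraries. Within siPkm2, replicate 2 exceeded the mean of replicates 1 and 3 by 3.05-fold to 4.999-fold for Oas1a, Oas1b, Oas1g and Oasl2, and by 11.9-fold, 13.2-fold and 16.1-fold for Oasl1, Oas2 and Oas3.

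On the scale of log2(CPM + 0.5), the median difference of the 7 genes within a pair, siPkm2 minus siNC, was 3.76 in pair 1, 0.85 in pair 2 and 2.67 in pair 3. With genes at 0 set to 3 counts and no pseudocount, these medians were 6.04, 0.85 and 4.44. The medians over all 15269 genes tested were -0.014, 0.0052 and -0.0039. In a fit by edgeR of all genes without the replicate number, the members' median log2 fold change was 1.32, with a range of 0.41 for Oas3 to 2.75 for Oasl1. When the replicate number entered as a block, the members had a median of 3.44, with a range of 1.67 for Oas2 to 3.92 for Oas1g, and the median of all genes was -0.01. At a fold over 2 and an adjusted p under 0.05, 0 of 7 members were called without the block, where 0% of all genes were called, and 3 of 7 with it (Oas1b, Oas1g and Oasl1), where 5.83% of all genes were called, 2.65% as higher in siPkm2. These counts describe the contrast that the members were chosen on. Over all genes without the block, 2690 had an unadjusted p under 0.05, and DESeq2 called 430. A fit without pair 2, the pair in which each of the 7 members differed least, was added after seeing the data. There the block called 7 of 7, where 10.8% of all genes were called, 4.94% as higher in siPkm2. The members' median log2 fold change was 5.58, and these values are a description, not a test. Without siPkm2 replicate 2, the unblocked log2 fold changes of Oas2 and Oas3 were -1.76 and -2.18.

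**Figure D2:**
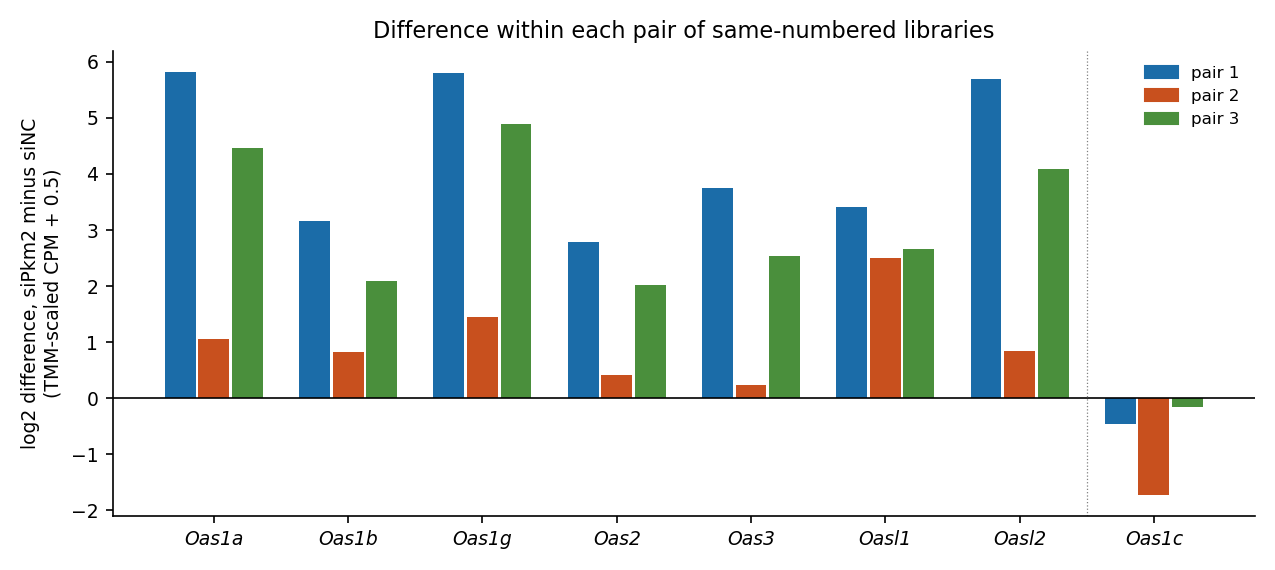
Difference of log2(TMM-scaled CPM + 0.5), siPkm2 minus siNC, for each gene in each of the 3 pairs of same-numbered libraries, 1 bar a pair. The bars of all 7 members lie above 0, and for 7 of 7 the bar of pair 2 is the shortest, with Oasl1 the least uneven at 3.42, 2.49 and 2.67. Oas1c lies below 0 in each pair on this scale, whereas by deposited TPM pairs 1 and 3 lie above 0 (0.13 and 0.24).

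Levels were compared between genes by TPM, which divides by transcript length. The 7 transcripts summed to 2.16, 341 and 7.33 TPM in siNC and to 142, 654 and 114 TPM in siPkm2. Oasl2 took 32.9% to 47.0% of the sum in the siPkm2 libraries and 44.8% in siNC replicate 2. By the mean TPM of siPkm2 the order was Oasl2 (126 ± 131), Oas1g (71.9 ± 60.9), Oas1a (31.8 ± 23.4), Oas1b (23.7 ± 19.3), Oas2 (20.8 ± 29.6), Oasl1 (16.6 ± 21.9) and Oas3 (13.04 ± 19.4; SD, n = 3 each). The ranges of all neighbours in this order overlapped. Oas1g stood above Oas1a, and Oas1a above Oas1b, in 3 of 3 siPkm2 libraries, while Oas1b stood above Oas1a in 3 of 3 siNC libraries. In siNC replicate 2 these lay close, at 28.68 TPM for Oas1b and 28.19 TPM for Oas1a, and by CPM Oas1a was higher (30.6 against 21.1). Oas1a had only 0 and 3.84 estimated counts in siNC replicates 1 and 3.

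Oas1a and Oas1g together made up 51.0% of the sum in siPkm2 replicate 1 and 34.5% in replicate 3, against 30.4% in siPkm2 replicate 2 and 26.4%, 22.6% and 10.1% in siNC replicates 1, 2 and 3. Oas2 and Oas3 together made up 4.16% and 4.49% in those siPkm2 libraries, against 13.8% in siPkm2 replicate 2 and 13.4%, 21.6% and 11.2% in siNC replicates 1, 2 and 3. The share of Oas1b was largest where the sum was smallest, at 35.2% and 33.4% in siNC replicates 1 and 3. These last shares rest on few counts. TPM per CPM of 1 gene differed between libraries by up to 1.60-fold (Oas2), and the cause was not tested.

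**Figure D3:**
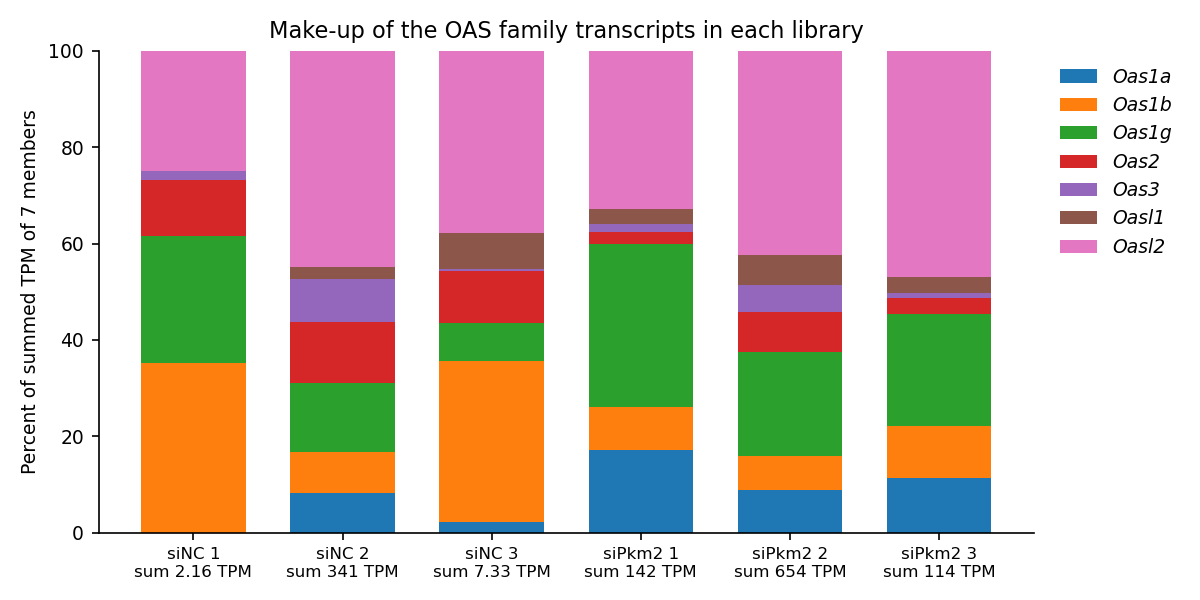
Percent of the summed TPM of the 7 genes held by each gene, 1 bar a library, with the sum in TPM under each bar. Oas1a and Oas1g together hold 51.0%, 30.4% and 34.5% in siPkm2 replicates 1, 2 and 3, and Oas2 and Oas3 together are narrowest in siPkm2 replicates 1 and 3 (4.16% and 4.49%). The bars of siNC replicates 1 and 3 stand for sums of 2.16 and 7.33 TPM.

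The other genes of the pathway that were tested were not called. Of a list of 10, 6 were tested by the quasi-likelihood test of edgeR, adjusted after Benjamini and Hochberg. Without the replicate block 0 were called, where 0% of all genes were called, and 1 had an unadjusted p under 0.05. With the block 0 were called, where 5.83% of all genes were called, and 3 had an unadjusted p under 0.05. DESeq2 also called 0, where it called 2.79% of all genes. With so few genes tested, 0 calls lie near these shares. Pde12, a phosphodiesterase that degrades oligoadenylates, had a log2 fold change of 0.53 with the block (edgeR adjusted p = 0.0259), under the 2-fold limit. Abce1, a protein of ribosome recycling, lay at 0.14, Akap7 at 0.46 and Cgas, a nucleotidyltransferase related in structure that senses DNA, at 0.40, each with the block and each above 0.05 in adjusted p.

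Oas1c, another member of the cluster, had 70, 240 and 58 counts in siNC and 41, 67 and 49 counts in siPkm2. By CPM it was lower in siPkm2 in 3 of 3 pairs, though the counting intervals of the ratios in pairs 1 and 3 (0.452 to 1.02 and 0.590 to 1.31) included 1. By deposited TPM it was higher in siPkm2 in pairs 1 and 3 (2.13 against 2.38 and 2.29 against 2.80 TPM, siNC first) and lower in pair 2 (9.21 against 2.23 TPM). It did not pass, with a log2 fold change of -1.15 (edgeR adjusted p = 0.361) and, with the block, of -0.92 (edgeR adjusted p = 0.139). It starts 120 bases from Oas1b, which was higher in siPkm2 in 3 of 3 pairs. Oas1d, Oas1e, Oas1f and Oas1h had at most 13 counts in any library, and Oas1f had 0 in all 6. Of the 10 genes of the cluster, 5 were thus higher in siPkm2 in each pair by CPM and by TPM, Oas1c was lower in each pair by CPM but by TPM in pair 2 alone, and 4 had 13 counts or fewer in every library.

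**Figure D4:**
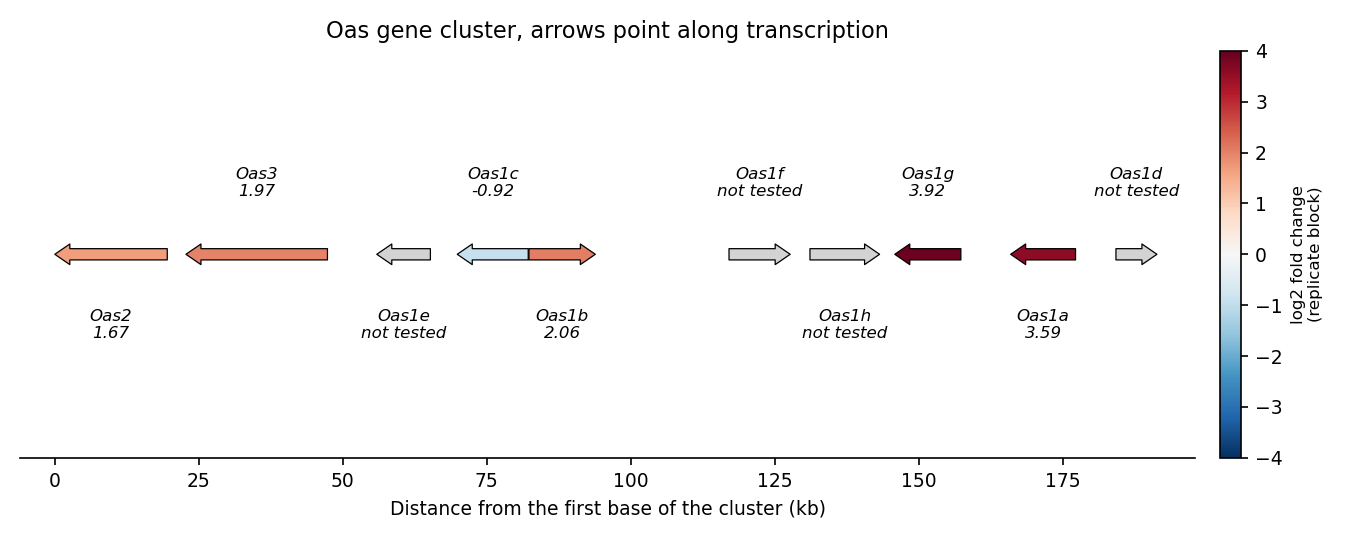
Map of the Oas cluster on chromosome 5, with distance in kb from its first base, arrows along the direction of transcription and colour for the edgeR log2 fold change with the replicate block, siPkm2 minus siNC. The 5 described members are red (1.67 to 3.92), Oas1c is blue (-0.92), and the 4 grey genes were not tested for want of counts.

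Within 100 kb of a member lay 24 annotated genes outside the Oas family, of which 5 were tested (Ankrd13a, 1500011B03Rik, 2210016L21Rik, Sppl3 and Dtx1). Of these, 0 were called in either fit, where 0% of all genes were called without the block and 5.83% with it. With so few genes tested, 0 calls lie near these shares. Their log2 fold changes with the block ran from -0.44 for Dtx1 to 0.60 for 1500011B03Rik. The latter (edgeR adjusted p = 0.0212) and 2210016L21Rik, 4243 bases from Oasl1, at 0.44 (edgeR adjusted p = 0.0272), were under the 2-fold limit. Gm43068, which overlaps Oas2, had 33 counts in all 6 libraries together, and Gm13822, antisense to Oasl1, had 0. Whether the counting used strand is not given in the sources used here.

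Interferon ligands, receptors, signalling factors and RNA sensors were read from a list of 25, of which 21 were tested. Without the block 0 were called by edgeR, where 0% of all genes were called, with 0 at an unadjusted p under 0.05. DESeq2 called 0 of the 18 for which it gave an adjusted p, and it gave no p-value for Stat2, Dhx58 and Irf7. With the block, 8 rose and 0 fell, where 2.65% of all genes were called as higher in siPkm2. Among them were the interferon-activated factors Stat2 and Irf9, the RNA sensors Ifih1, Ddx58, Dhx58 and Tlr3, and Eif2ak2, the RNA-dependent kinase PKR that halts translation. Stat2 lay at 23.7, 265 and 38.4 CPM in siNC and at 165, 432 and 194 CPM in siPkm2, so siNC replicate 2 lay above siPkm2 replicates 1 and 3, as it did for the members. Its log2 fold change with the block was 1.95 (SE 0.42, edgeR adjusted p = 0.0299). Dhx58 had the largest of the 8, 2.19 (SE 0.50, edgeR adjusted p = 0.0350), and Tlr3 the smallest, 1.22 (SE 0.31, edgeR adjusted p = 0.0444).

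Interferon receptor genes of the list were not called in either fit, and its ligand genes had too few counts to be tested. Ifnar1, a subunit of the type I interferon receptor, had a log2 fold change of -0.05 in both fits. Ifnb1, which encodes interferon beta, had 0, 5 and 0 counts in siNC and 0, 28 and 0 in siPkm2, so that its reads were in replicate 2 of both groups. A count of 0 allows up to 3 counts in a library. The interferon genes Ifng, Ifnl2 and Ifnl3 had 0 counts in all 6 libraries. Cd14, a marker of macrophages also used by other cells, was the 1 macrophage marker of 4 tested that was called with the block. It lay at a log2 fold change of 1.35 (edgeR adjusted p = 0.0432), where 2.65% of all genes were called as higher in siPkm2. In the block without pair 2, Cd68 was called as well, at 1.31 (edgeR adjusted p = 0.00436), beside Cd14 at 1.87 (edgeR adjusted p = 0.00766). In that fit 4.94% of all genes were called as higher in siPkm2. Of the 4 synovial fibroblast markers, Prg4, which encodes lubricin, and Pdpn were called with the block, against the same 2.65% of all genes. They lay at 2.15 (edgeR adjusted p = 0.0271) and 1.19 (edgeR adjusted p = 0.0272), and DESeq2 called Prg4 as well. Cd55 lay at 0.71 with the block (edgeR adjusted p = 0.0142), under the 2-fold limit. Thy1 was lower in siPkm2, at -0.92 with the block (edgeR adjusted p = 0.108), and was not called. With the block and without pair 2, Thy1 was called as lower, at -1.25 (edgeR adjusted p = 0.0186), where 5.85% of all genes were called as lower. The part of these markers in the members' values was not tested.

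The mean standardised profile of the 7 genes over the 6 libraries was compared with each of the 15269 genes by Pearson's r on log2(CPM + 0.5), as a description. Single members lay between 0.961 (Oas2) and 0.994 (Oas1b). The 10 other genes with the highest r were Nlrc5 (0.9993), Zbp1, Tmem106a, Gm29100, H2-D1, H2-T23, Mlkl, Irf7 (0.997), Zbtb43 and Abcb1a. Nlrc5 is the transactivator of MHC class I genes, H2-D1 and H2-T23 are such genes, Zbp1 senses Z-form nucleic acids and Mlkl is the effector of necroptosis. By this measure 52 other genes exceeded 0.99 and 383 exceeded 0.95, and all points share the elevated replicate 2. Stat2 lay at 0.99, Oas1c at 0.31 and Pkm at -0.41.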

How the data were processed

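The labels' processing notes, per the submitters, name mm9 and edgeR; the aligner and counter are not given in the sources used here. Identifiers were placed on GRCm38 by GENCODE M21 (94.0% found, all 7 members, each with a transcript of the listed length). The authors deposited estimated counts per gene, some fractional and not normalized, together with TPM values scaled by the authors within each library, and mean TPM per group; the TPM of the 6 sample files equalled those of the table. Columns of the authors' own comparison (fold change, log2 fold change, p-value, adjusted p-value, call and direction) were not used.

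Estimated counts, rounded to integers, were fitted in R 4.3.3 with edgeR 4.0.16 (TMM factors, filterByExpr on group, quasi-likelihood test, Benjamini-Hochberg adjustment over 15269 genes, limma 3.58.1 as its dependency). A gene was called at a fold over 2 and an adjusted p under 0.05, the limits of the study's methods. CPM used unrounded estimated counts and the TMM factors. Members, lists and tests were chosen with earlier results of these data known; the members' values in this contrast are a description without a test. The text names the 7 members, the called genes of the pathway and signalling lists with Ifnb1, Ifnar1 and Pkm, tested neighbours within 100 kb, and the 10 genes of most similar profile. Other pathway genes, markers and the sequence comparisons were named after their values were seen. Some genes counted in these lists are not reported here by name. The study reports independent repeats, in at least triplicate, for its experiments in general. Nothing in the sources says whether these libraries came from separate cultures or animals, so p-values measure only the spread between these libraries, which may be technical. Libraries of 1 group were not duplicates of each other: 49.2% to 69.0% of genes differed beyond counting noise.

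Both groups carry replicate numbers 1, 2 and 3 in the labels. Deviations from the group means of same-numbered libraries had correlations of 0.62, 0.73 and 0.60 across genes, so the numbers were taken to pair the libraries, and the blocked fit is given beside the unblocked one. Alternatives were RLE and upper-quartile factors, other filters, DESeq2 1.42.0, each library left out, other pseudocounts (0.1 and 1 CPM) and TPM. Added after seeing the data were the block without pair 2 and the sum of Oas1a and Oas1g. The fit was tested on simulated data. Promoter windows are from RefSeq (GRCm38.p6), and 5 of 7 members had an entry. Counting intervals (95%, exact binomial on the counts of both libraries) cover counting error only, as reads carry no molecular identifiers.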

Additional observations from a re-analysis of the deposited data

How the results depend on the processing

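Most values that changed did so with the replicate block or when a library of replicate 2 was left out. Without the block 0 genes were called, against 890 with the replicate block, 430 by DESeq2, 3 with upper-quartile factors, 9 with no filter, 3 with at least 10 counts in every library, and 0 to 105 when 1 library was left out, the 105 without siNC replicate 2. The block without pair 2 called 1639. The members' median log2 fold change of 1.32 became 3.44 with the block, 5.58 with the block and without pair 2, and 0.50 to 7.27 when 1 library was left out, the highest without siNC replicate 2 and the lowest without siPkm2 replicate 2. Oas3 reversed to -0.16 without siNC replicate 1 or 3 and to -2.18 without siPkm2 replicate 2, and Oas2 reversed to -1.76 without siPkm2 replicate 2, while without siNC replicate 2 they lay at 8.22 and 4.94. These unblocked fits leave a pair broken, and the cause was not tested. Of the 25 signalling genes, 21 were tested in the blocked fits and in those with 1 library left out. With the block 8 were called, where 2.65% of all genes were called as higher in siPkm2. With the block and without pair 2 it was 9, where that share was 4.94%. When 1 library was left out, 0 to 3 of the signalling genes were called. Under the other factors and filters 0 were called, as by DESeq2, which gave an adjusted p for 18 of them. Calls of other pathway genes stayed at 0 in the 13 alternatives run, and those of neighbours in the 1 run, the block. The pair medians depended on the pseudocount where control counts were near 0. Pair 1 went from 3.76 to 5.63 at 0.1 CPM and to 2.99 at 1 CPM, while pair 2 stayed at 0.85. With 1 base more, a C at its end, the response element core was in 0.819% of windows and 2 of 5 members. Of the 10 genes with the most similar profile, 8 were shared with those by Spearman's rho. DESeq2 gave no adjusted p for 5 of the 7 members. With 3 libraries a group and control counts from 0 to 76 outside replicate 2, depth limits the folds of pairs 1 and 3.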
